A study of Mus musculus with 9 samples.

Results

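The Gimap genes encode GTPases of immunity-associated proteins, small GTP-binding proteins of lymphocytes that sit side by side in a single cluster on mouse chromosome 6. All 8 Gimap genes that the expression table lists by name (Gimap1, Gimap3, Gimap4, Gimap5, Gimap6, Gimap7, Gimap8 and Gimap9) were taken, out of 24060 genes in the table, and their levels were compared over 3 CD8 T cell clones. All 8 passed the filter on low values (a maximum above 1 TPM, transcript abundance per fixed total of transcripts), and no library had a member below 12.31 TPM, so the filter removed none of them.

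R7-I, R7-II and R7-III are lines of transnuclear mice, each made by transferring the nucleus of 1 CD8 T cell specific for a peptide of the Toxoplasma gondii protein ROP7, so each line stands for 1 clone. Their T cell receptors are rearranged in the endogenous loci, and all 3 lines were Rag2-proficient, CD90.2+ and on the BALB/c background. The labels order the affinity for the peptide as R7-I above R7-III above R7-II, and the self-reactivity as R7-III above R7-I above R7-II. Splenocytes of each line were stimulated overnight (ROP7 peptide at 10 µM, IL-2 at 10 ng/ml) before live CD3+ CD8+ cells binding the H-2Ld-Rop7 tetramer were sorted for RNA-seq, with 3 libraries per clone. All 9 libraries thus came from peptide-stimulated cells, and unstimulated cells were not analysed here. Age and sex are not given. The labels call the 3 libraries of a clone biological replicates but do not say whether they came from separate mice. The p-values thus measure the spread between these libraries, which may not be the spread between mice.

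GIMAP proteins carry the AIG1 type of GTP-binding domain and lie on intracellular membranes. They are known mainly for keeping lymphocytes alive: loss of GIMAP5 or GIMAP1 leaves mice or rats short of mature T cells, and Gimap RNA is abundant in resting T cells. Several members have been tied to the BCL2 family, which sets the balance of death and survival at the mitochondrion, or to autophagy through the ATG8-like GABARAP proteins.

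R7-II, the clone of lowest affinity, had the highest summed Gimap TPM, which is a share of a library's transcripts and not an amount of RNA. The summed TPM of the 8 genes was 811 ± 22.8 for R7-I, 1198 ± 50.9 for R7-II and 870.0 ± 16.1 for R7-III (SD, n = 3 each). The 3 R7-II libraries reached 1145 to 1246 TPM, above the 789 to 884 TPM of the other 6. In these bulk samples, a change in how many of the sorted cells carry an RNA and a change in the RNA of each cell cannot be told apart. The family did not move as a block: Gimap7, Gimap4, Gimap3, Gimap9 and Gimap8 stood higher in R7-II than in either other clone, and Gimap6 was slightly higher. Gimap1 was slightly higher than in R7-I but close to its level in R7-III, and Gimap5 lay close to its levels elsewhere.

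The cluster spans 123.666 kb of chromosome 6, positions 48647186 to 48770851 of GRCm38.p6. From its low end the genes run Gimap8, Gimap9, Gimap4, Gimap6, Gimap7, Gimap1, Gimap5 and Gimap3, with Gimap6 and Gimap3 on the minus strand and the others on the plus strand. Gimap1 ends only 2401 bp before Gimap5 starts. The 250 bases before the start site are shown for 5 genes, from the RefSeq promoter windows on GRCm38.p6, each read 5′ to 3′ on its gene's strand. Gimap7, Gimap4 and Gimap3 are shown because their levels set R7-II apart most, or because their abundance was greatest there. Gimap1 and Gimap5 are shown because these neighbours moved little. The windows are chr6:48718371-48718620 (plus) for Gimap7, chr6:48684328-48684577 (plus) for Gimap4, chr6:48770852-48771101 (minus) for Gimap3, chr6:48738797-48739046 (plus) for Gimap1 and chr6:48745947-48746196 (plus) for Gimap5. Capitals mark the letters of any motif searched, on either strand.
Gimap7: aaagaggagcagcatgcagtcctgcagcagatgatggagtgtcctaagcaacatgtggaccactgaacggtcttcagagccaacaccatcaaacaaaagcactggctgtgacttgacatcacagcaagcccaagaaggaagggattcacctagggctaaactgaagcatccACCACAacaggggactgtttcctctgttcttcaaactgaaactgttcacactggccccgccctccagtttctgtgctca
Gimap4: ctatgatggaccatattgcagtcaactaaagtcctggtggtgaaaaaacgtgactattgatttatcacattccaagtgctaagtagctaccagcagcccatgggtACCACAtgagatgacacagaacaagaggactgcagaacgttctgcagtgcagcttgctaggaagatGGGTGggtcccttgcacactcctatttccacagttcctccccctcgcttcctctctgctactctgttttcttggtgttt
Gimap3: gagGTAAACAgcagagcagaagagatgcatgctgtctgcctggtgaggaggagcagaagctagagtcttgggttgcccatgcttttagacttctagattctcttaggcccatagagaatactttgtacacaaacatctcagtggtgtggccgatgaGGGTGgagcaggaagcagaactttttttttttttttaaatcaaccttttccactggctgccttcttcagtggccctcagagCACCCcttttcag
Gimap1: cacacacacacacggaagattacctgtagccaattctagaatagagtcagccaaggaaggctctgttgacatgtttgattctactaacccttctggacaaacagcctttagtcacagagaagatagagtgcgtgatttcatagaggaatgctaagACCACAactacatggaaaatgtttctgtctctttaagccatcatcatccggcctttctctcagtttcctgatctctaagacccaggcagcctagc
Gimap5: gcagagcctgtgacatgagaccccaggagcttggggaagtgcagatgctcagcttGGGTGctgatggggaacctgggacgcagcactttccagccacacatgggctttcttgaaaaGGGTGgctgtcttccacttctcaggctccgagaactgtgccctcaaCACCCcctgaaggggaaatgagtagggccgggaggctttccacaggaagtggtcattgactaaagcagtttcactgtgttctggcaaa

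The motifs were short fixed letters chosen for factors that act in T cells: CACCC for KLF factors, TGTTTAC for FOXO, CCGGAA for ETS, TGTGGT for RUNX, TGGGAA for Ikaros, CAGGTG as an E-box and TTCNNNGAA for STAT. All 8 members had a window, and Gimap8 had 2, which overlap. The RUNX letters stood in the windows of Gimap7 (79 bases before the start site), Gimap4 (145 bases) and Gimap1 (95 bases), and in 14.0% of all 32851 windows of the table. The KLF letters stood in windows of 5 members (Gimap3, Gimap4, Gimap5, Gimap8 and Gimap9), and in 52.0% of all windows. The FOXO letters occurred in the Gimap3 window alone among the members, 247 bases before the start, and in 3.17% of all windows. STAT letters stood in windows of Gimap6 and Gimap8 (7.02% of all windows) and the E-box in that of Gimap9 (17.2%), while the ETS and Ikaros letters, found in 12.0% and 21.6% of all windows, were in no member's window. Members with large and with small differences in R7-II thus shared letters, RUNX in Gimap7, Gimap4 and Gimap1, and KLF in Gimap3 and Gimap5. Such matches describe the sequence and do not show that a factor binds there. A window without the exact letters may hold other forms of a factor's site, which were not searched.

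By limma, 7 of the 8 members rose in R7-II relative to R7-I, at an adjusted p of at most 0.01 over all 11330 genes tested. Over all those genes, 40.6% were called higher in R7-II and 56.1% were called in either direction, so the members' count has to be read against a comparison in which most genes were called. The median log2 fold change was 0.61 for the members and 0.17 for all genes. The libraries of the 2 clones did not overlap for 7 members, all higher in R7-II, where 71.2% of all genes did not overlap and 50.6% did so in that direction. Against R7-III, 6 of the 8 were higher in R7-II, where 35.6% of all genes were called higher and 53.6% in either direction. The medians in that comparison were 0.60 for the members and 0.12 for all genes. There 6 members did not overlap, all higher in R7-II, beside 70.6% of all genes, 46.4% in that direction. Both comparisons use the same R7-II libraries and are not independent.

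TPM values sum to the same total in each library, and scaling by the median of ratios removes the general shift, bringing the median of all genes to 0.01 and 0.00. With that scaling, 5 members were higher and 1 was lower in each R7-II comparison, beside 26.0% of all genes higher and 28.5% lower against R7-I and 25.6% higher and 27.8% lower against R7-III. The 5 were Gimap3, Gimap4, Gimap7, Gimap8 and Gimap9, and these kept direction and call in both comparisons under all 18 alternatives run. Of the genes called in R7-II against R7-I, 72.4% were higher on the TPM scale and 47.7% after the scaling by the median of ratios, and against R7-III the split moved from 66.4% to 47.9%.

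**Figure D1:**
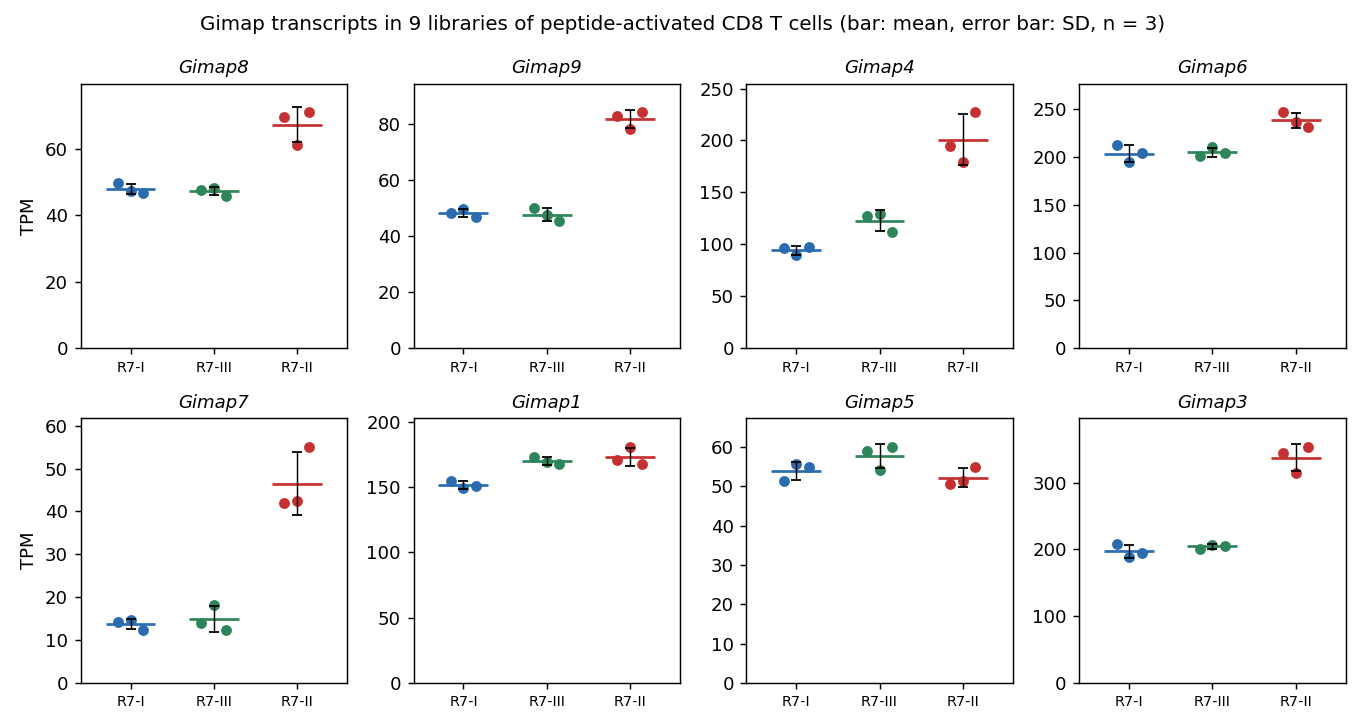
TPM of each of the 8 Gimap genes in each of the 9 libraries, by clone in the labels' order of affinity (R7-I, R7-III, R7-II), with points for libraries and bars for the mean and SD of 3. R7-II stands above the other 6 libraries for Gimap3, Gimap4, Gimap6, Gimap7, Gimap8 and Gimap9, and not for Gimap1 and Gimap5.

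Gimap3 and Gimap5 are close relatives. Gimap5 encodes a lysosomal membrane protein needed for the survival and quiescence of naive T cells, and Gimap3 encodes a membrane protein of the endoplasmic reticulum known for its effect on how mitochondrial DNA variants are inherited in mouse tissues. For Gimap3, the R7-I libraries held 208, 189 and 194 TPM, the R7-II libraries 345, 315 and 354 TPM and the R7-III libraries 201, 207 and 206 TPM. The R7-II libraries did not overlap with the other 6, which lay within 189 to 208 TPM. Gimap3 was higher in R7-II by 0.77 ± 0.0466 on the log2 scale against R7-I (SE, limma adjusted p = 3.08e-07) and by 0.72 against R7-III (adjusted p = 4.77e-07). In R7-II it was the most abundant member, at 338 ± 20.7 TPM (SD, n = 3), and ranked 404 of the 11330 genes by mean TPM.

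For Gimap5, the R7-I libraries held 51.5, 55.7 and 54.8 TPM, the R7-II libraries 50.5, 51.3 and 55.0 TPM and the R7-III libraries 59.0, 54.2 and 60.1 TPM. The 3 clones overlapped. Its log2 difference of R7-II from R7-I was -0.05 (95% interval -0.16 to 0.07, limma adjusted p = 0.446), and that from R7-III was -0.14 (-0.26 to -0.03, adjusted p = 0.0325), neither of which passed 0.01. Relative to the shift of all genes the picture changed, since after scaling by the median of ratios Gimap5 was called lower in R7-II, by -0.22 against R7-I (adjusted p = 0.00383) and by -0.27 against R7-III (adjusted p = 0.00123). Quantile normalization gave -0.21 (adjusted p = 0.00743) and -0.27 (adjusted p = 0.00160). The ratio of Gimap3 to Gimap5 TPM within a library is the same under any scaling by 1 factor per library, though not under quantile normalization. It ran from 3.40 to 4.04 in R7-I, from 6.13 to 6.83 in R7-II and from 3.41 to 3.83 in R7-III.

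The resemblance of this pair bears on how firmly their reads can be assigned. In the GENCODE protein-coding transcripts, 41 words of 100 bases were shared by Gimap3 and Gimap5, which is 1.65% of the words of Gimap3 and 2.21% of those of Gimap5. At 25 bases the shared part was 15.6% of Gimap3 and 20.6% of Gimap5. The other 6 members shared no word of 100 bases with any member. Such words were looked for among the members alone.

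Gimap4 encodes a member that is dispensable for making T cells but affects how fast they die when deprived of survival signals. For Gimap4, the R7-I libraries held 96.0, 89.5 and 97.6 TPM, the R7-II libraries 195, 179.6 and 227 TPM and the R7-III libraries 128, 129 and 111 TPM. None of the 3 clones overlapped, in the order R7-I, R7-III, R7-II. Gimap4 was higher in R7-II by 1.07 ± 0.0820 on the log2 scale against R7-I (SE, limma adjusted p = 1.47e-06) and by 0.70 against R7-III (adjusted p = 3.01e-05). It was the only member whose libraries were ordered R7-I below R7-III below R7-II with no overlap, a pattern held by 11.5% of all genes tested.

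Gimap7 encodes a small member whose human counterpart is found on lipid droplets. It was the least abundant of the 8 and had the largest log2 fold change among them. For Gimap7, the R7-I libraries held 14.2, 14.6 and 12.3 TPM, the R7-II libraries 42.0, 42.5 and 55.1 TPM and the R7-III libraries 14.0, 18.2 and 12.3 TPM. Every R7-II library lay above the 18.2 TPM of the highest other library, and R7-I and R7-III overlapped. Gimap7 was higher in R7-II by 1.69 ± 0.137 on the log2 scale against R7-I (SE, limma adjusted p = 2.22e-06) and by 1.59 against R7-III (adjusted p = 3.38e-06). It also varied most between libraries of a clone, with a coefficient of variation of 16.0% in R7-II and 20.4% in R7-III, against 1.58% to 12.2% for the other members in those clones.

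Gimap9 and Gimap8 lie at the low end of the cluster, and Gimap8 is the largest member, with more than 1 GTP-binding domain. For Gimap9, the R7-I libraries held 48.2, 49.7 and 46.7 TPM, the R7-II libraries 83.0, 78.1 and 84.3 TPM and the R7-III libraries 50.03, 47.5 and 45.3 TPM. The difference from R7-I was 0.75 ± 0.0469 on the log2 scale (SE, limma adjusted p = 3.89e-07) and that from R7-III was 0.77 (adjusted p = 3.33e-07). Gimap9 was thus far above the other clones in all 3 R7-II libraries, and followed Gimap3 more closely than did any other member. Over the 9 libraries, the centred log2 levels of Gimap3 and Gimap9 differed by a root mean square of 0.0685, the smallest among the pairs of members, while the largest was 0.839 for Gimap5 and Gimap7.

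For Gimap8, the R7-I libraries held 49.6, 47.1 and 46.8 TPM, the R7-II libraries 69.4, 61.1 and 71.0 TPM and the R7-III libraries 47.6, 48.1 and 45.8 TPM. All R7-II libraries were above all others. The log2 difference was 0.48 ± 0.0550 against R7-I (SE, limma adjusted p = 2.48e-05) and 0.50 against R7-III (adjusted p = 1.98e-05).

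Gimap6 encodes a partner of the autophagy protein GABARAPL2 and was the most abundant member in R7-I by its mean. For Gimap6, the R7-I libraries held 213, 194 and 204 TPM, the R7-II libraries 247, 237 and 232 TPM and the R7-III libraries 201, 210.3 and 204 TPM. The R7-II libraries were again above the other 6, by a small margin. The log2 difference was 0.23 ± 0.0383 against R7-I (SE, limma adjusted p = 3.61e-04) and 0.22 against R7-III (adjusted p = 5.41e-04). These are near the shift of all genes, and with scaling by the median of ratios the differences were 0.05 and 0.09 and did not pass.

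Gimap1 is needed for mature T and B cells to persist. For Gimap1, the R7-I libraries held 155, 149 and 151 TPM, the R7-II libraries 170.5, 181 and 167 TPM and the R7-III libraries 173, 169 and 168 TPM. R7-I was the low clone, and R7-II and R7-III overlapped. Gimap1 was higher than in R7-I by 0.19 ± 0.0342 in R7-II (log2, SE, limma adjusted p = 6.22e-04) and by 0.16 in R7-III (adjusted p = 0.00811), while R7-II differed from R7-III by 0.02 (95% interval -0.05 to 0.10, adjusted p = 0.573). Scaling by the median of ratios left a difference of R7-II from R7-I of 0.01, which did not pass, and turned that from R7-III to -0.10.

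**Figure D2:**
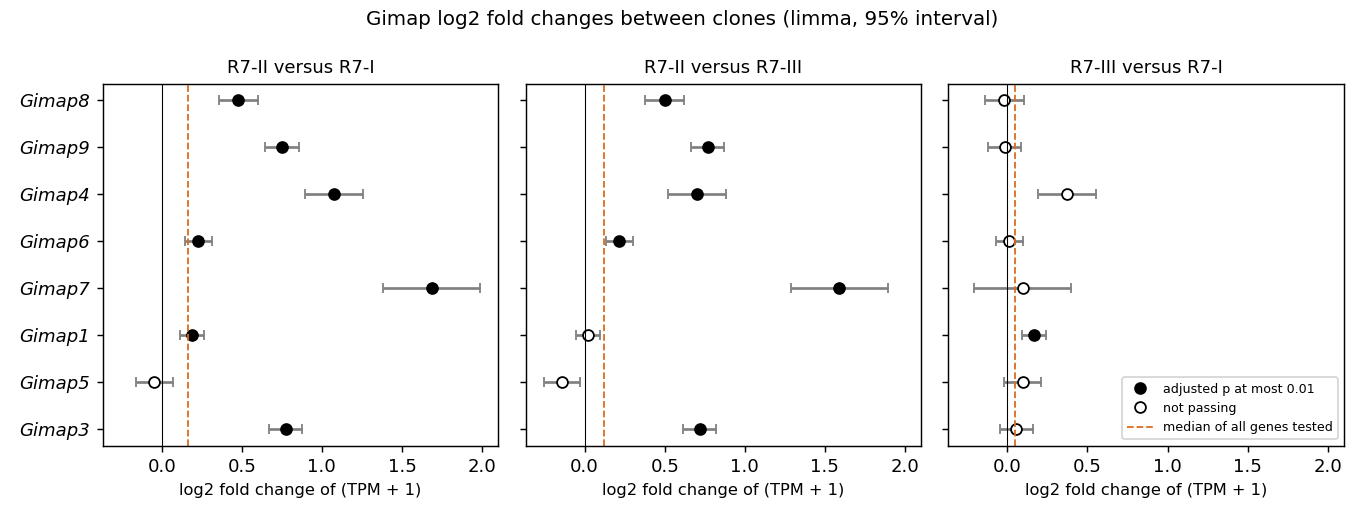
Log2 fold change of each Gimap gene in the 3 comparisons, with 95% intervals from limma on log2(TPM + 1), beside the median of all genes tested. Gimap7 at 1.69 and 1.59 stands out in the R7-II comparisons against R7-I and R7-III, and Gimap5 lies at or below zero in both. Gimap4 is next against R7-I at 1.07, and against R7-III at 0.70 it lies near Gimap3 (0.72) and Gimap9 (0.77).

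R7-III and R7-I, which the labels place at the top of self-reactivity and of affinity, differed in 1 of the 8 members, where 6.96% of all genes were called higher in R7-III and 1.45% lower, making 8.41% in either direction. That member was Gimap1, by the margin given above. Gimap4 was higher in R7-III by 0.37 (95% interval 0.19 to 0.56) with no overlap of libraries, but its limma adjusted p of 0.0108 missed 0.01. Libraries of R7-III and R7-I did not overlap for 2 members, Gimap1 and Gimap4, beside 41.9% of all genes, 29.5% with R7-III higher. The intervals of the other 6 members reached from -0.21 to 0.40 at their widest (Gimap7), and from -0.07 to 0.10 at their narrowest (Gimap6), with limma adjusted p from 0.237 to 0.882. Leaving out any 1 library of R7-I or R7-III gave Gimap1 a limma adjusted p above 0.01 (0.0195 to 0.0380), so its call rested on each of these 6 libraries.

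Taking R7-II against the other 6 libraries, the R7-II libraries were all higher for 6 of the 8 members, a pattern found in 41.7% of all genes tested. For those 6 the exact two-sided permutation test of 3 against 6 libraries gave p = 0.0238, the smallest it can give. The same exact test gave p = 0.167 for Gimap1 and p = 0.119 for Gimap5. With 3 against 3 libraries the exact test cannot go below 0.1.

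The unequal changes shifted the make-up of the family's RNA, a measure that does not change when all values of a library are multiplied by 1 factor, though quantile normalization can change it. Gimap4 made up 11.6% of the summed Gimap TPM in R7-I, 16.7% in R7-II and 14.1% in R7-III, and Gimap7 made up 1.69%, 3.88% and 1.70%. Gimap3 rose from 24.3% and 23.5% in R7-I and R7-III to 28.2% in R7-II, and Gimap9 from 5.95% and 5.47% to 6.83%. The shares of Gimap1 (18.7%, 14.5% and 19.5% in R7-I, R7-II and R7-III), Gimap5 (6.67%, 4.37% and 6.64%) and Gimap6 (25.1%, 20.0% and 23.6%) were lower in R7-II. For these 7 members the exact two-sided permutation test of the share in 3 R7-II against 6 other libraries gave p = 0.0238. The Gimap8 share was 5.90%, 5.603% and 5.42%, with an exact p = 0.786. Since shares add to a fixed sum, a larger share of some members goes with a smaller share of others.

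**Figure D3:**
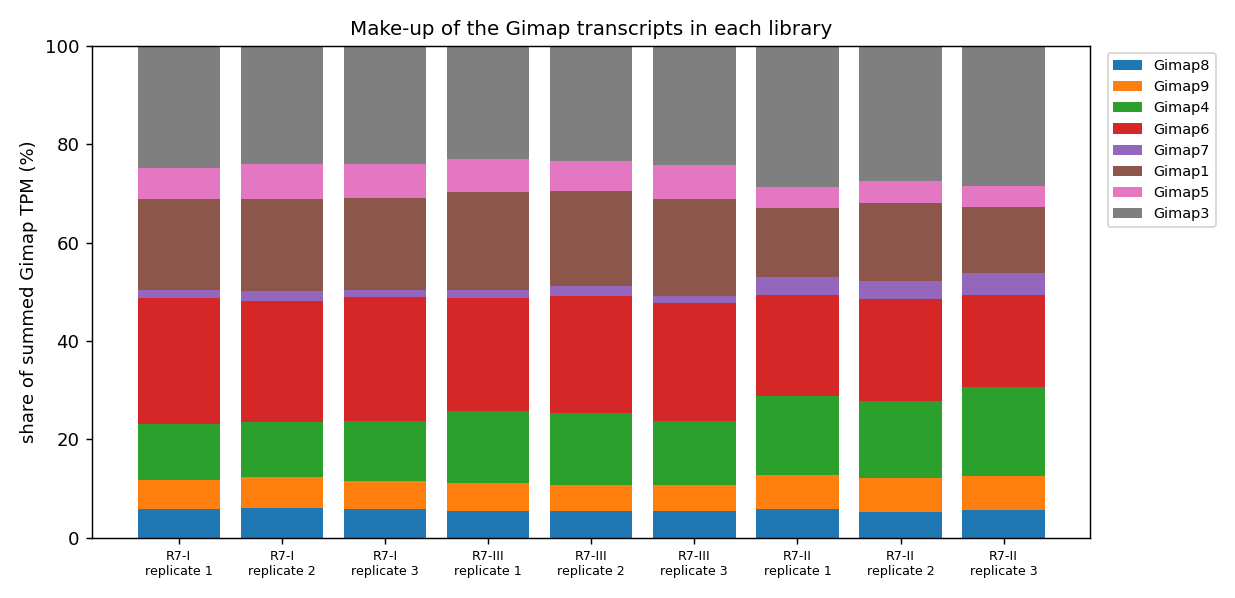
Share of each Gimap gene in the summed TPM of the 8, in percent, for each of the 9 libraries grouped by clone. The shares of Gimap3, Gimap4, Gimap7 and Gimap9 are larger in R7-II, and those of Gimap1, Gimap5 and Gimap6 are smaller.

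The order of the levels changed accordingly. TPM is set per transcript length, so members can be ranked within a library. In R7-I and R7-III the order from the top was Gimap6, Gimap3, Gimap1, Gimap4, Gimap5, Gimap9, Gimap8 and Gimap7, where Gimap6 and Gimap3 overlapped and so did Gimap9 and Gimap8. In R7-II it was Gimap3, Gimap6, Gimap4, Gimap1, Gimap9, Gimap8, Gimap5 and Gimap7, where Gimap4 and Gimap1 overlapped and so did Gimap5 and Gimap7. Gimap3 thus stood clear at the top in R7-II, and Gimap5 stood below Gimap8 and Gimap9.

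Along the cluster, the members not called against R7-III, Gimap1 and Gimap5, were neighbours, and members called higher lay on both sides of them. A role of position was not tested. The largest log2 fold changes against R7-I belonged to Gimap4 and Gimap7, which lie on either side of Gimap6 (0.23). Gimap1 and Gimap5, the pair with the shortest gap, lie next to each other with the smallest differences (0.19 and -0.05), and Gimap3, the next gene after Gimap5, was at 0.77. From 500 kb before the cluster to 500 kb after it lay 93 other annotated genes, of which 21 were in the table. These 21 all lay outside the cluster, and 12 of them passed the filter. Against R7-I, 7 of the 12 were higher and 1 was lower in R7-II, with a median log2 fold change of 0.57, and against R7-III 6 were higher and 2 lower, with a median of 0.41. Among those counted as higher in both, Atp6v0e2, Zfp467 and Tmem176b exceeded 1 TPM in R7-II alone. They passed the filter only through the clone where they were high, so these counts and medians were partly set by the filter. All genes were called higher at 40.6% and 35.6% and lower at 15.5% and 18.0%. With median-of-ratios scaling 7 of the 12 were higher and 2 lower against R7-I, and 6 higher and 3 lower against R7-III. With quantile normalization 4 were higher and 2 lower in each comparison, where 22.6% and 24.4% of all genes were higher and 26.6% and 25.1% lower.

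On the side of Gimap8, Atp6v0e2, which encodes a subunit of the proton pump of lysosomes, had mean levels of 0.0533, 4.50 and 0.0667 TPM in R7-I, R7-II and R7-III. Its log2(TPM + 1) difference was 2.38 against R7-I (limma adjusted p = 1.21e-07) and 2.36 against R7-III (adjusted p = 1.49e-07). The pseudogene Zfp862-ps was higher by 1.82 and 1.42, Krba1 by 0.72 and 0.85, Lrrc61 by 0.74 and 0.57, and Zfp467 by 0.58 and 0.61. Repin1, with a difference of 0.56 from R7-I, passed in that comparison only, and at 0.25 from R7-III had an adjusted p of 0.0159. Zfp775 and AI854703, the neighbours closest to Gimap8, passed in neither comparison. On the side of Gimap3, Tmem176b was higher by 0.71 and 0.79 at under 1.1 TPM, and Igf2bp3, an RNA-binding protein of fetal tissue, was lower by -1.01 and -1.16. Tra2a, a splicing factor, was lower against R7-III alone (-0.13) and Malsu1 passed in neither. Igf2bp3 overlaps Malsu1, and the libraries were not stranded, so reads of the overlap cannot be told apart.

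**Figure D4:**
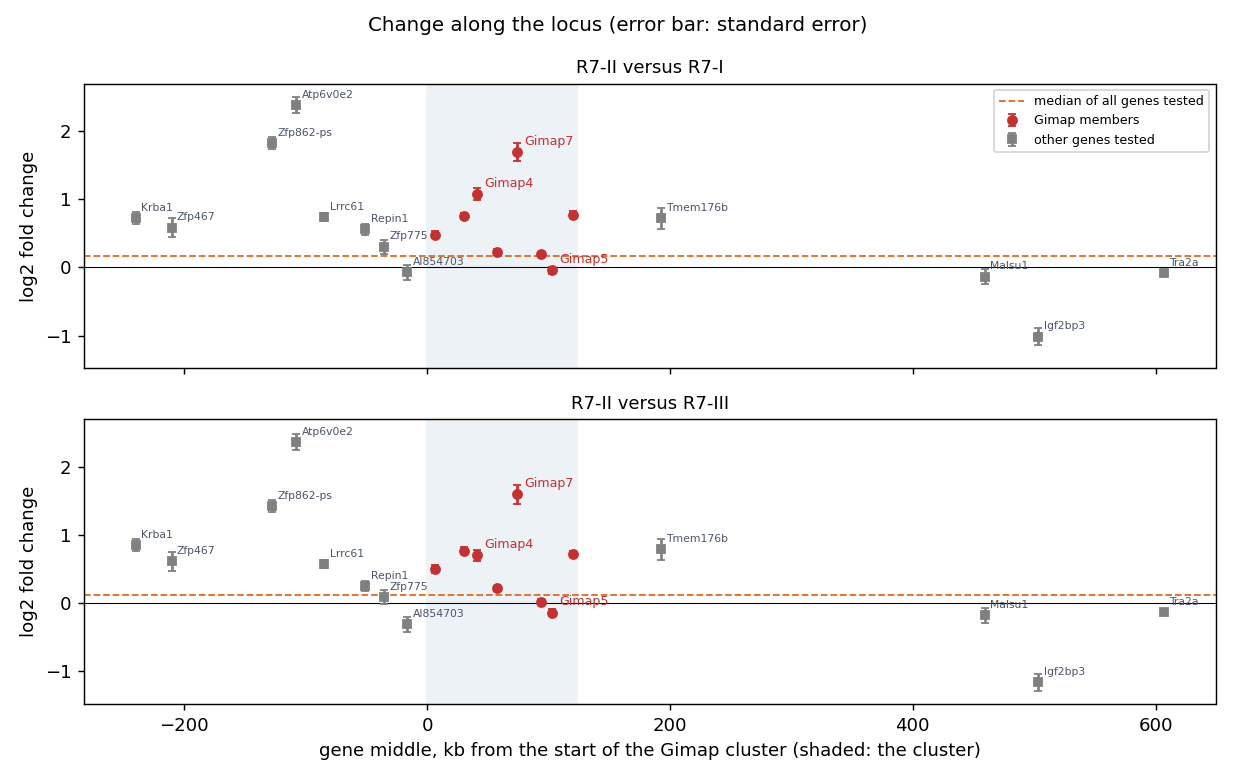
Log2 fold changes in R7-II, against each other clone, for the Gimap genes and the tested neighbours, against distance from the start of the Gimap cluster in kb. Gimap1 and Gimap5 are near zero between members that are clearly higher, and Atp6v0e2 at 2.38 and 2.36 is the highest of the neighbours.

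Genes tied to GIMAP function in the survival and autophagy pathways were taken as a list of 13, all of which passed the filter. Against R7-I, 9 were higher and 1 was lower in R7-II, with a median log2 fold change of 0.41, and against R7-III 7 were higher and 3 lower, with a median of 0.37. Of all genes, 40.6% were higher and 15.5% lower against R7-I, and 35.6% and 18.0% against R7-III, with medians of 0.17 and 0.12. After scaling by the median of ratios 7 were higher and 2 lower against R7-I, and 7 higher and 3 lower against R7-III, beside 26.0% and 28.5%, and 25.6% and 27.8%, of all genes. The most abundant was Bax, a pore-forming killer protein, at 390.4 ± 26.7, 444 ± 28.6 and 399 ± 5.79 TPM in R7-I, R7-II and R7-III (SD, n = 3), higher against R7-I by 0.19 (limma adjusted p = 0.00947), a difference that was 0.01 under the median of ratios and did not pass. Bcl2l1, which encodes the survival protein BCL-XL, was the gene that fell in both comparisons, by -0.66 (limma adjusted p = 1.49e-07) and -0.55 (adjusted p = 4.34e-07). Mcl1, another survival protein, rose by 0.49 and 0.50.

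Within this list the survival genes therefore moved in opposite directions. Bcl2 had a mean TPM of 11.6 ± 0.287 for R7-I, 37.2 ± 4.29 for R7-II and 14.7 ± 0.832 for R7-III (SD, n = 3), with a log2 difference of 1.59 (limma adjusted p = 9.46e-08) and 1.28 (adjusted p = 3.53e-07). Against R7-III, Bak1, the close relative of Bax, and Gabarapl1 were also lower (-0.31 and -0.38), while against R7-I neither passed (-0.11 and -0.0038). After scaling by the median of ratios, Bak1 was called lower against R7-I as well (-0.28, limma adjusted p = 0.0020). Gabarapl2, the partner of GIMAP6, was higher by 0.20 against R7-I (limma adjusted p = 0.00297) and by 0.15 against R7-III, where it did not pass (adjusted p = 0.0176). The difference from R7-I was 0.03 under the median of ratios and did not pass (adjusted p = 0.614). Bax (0.15) and Bad (0.0038) also did not pass against R7-III. Bcl2, Gabarapl2 and Bad were named after their values were seen.

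A list of 15 genes of resting T cells was read beside the members, since Gimap RNA is abundant in such cells. Against R7-I, 14 of the 15 were higher and 1 lower in R7-II, with a median log2 fold change of 0.87, and against R7-III 13 were higher and the other 2 did not pass, with a median of 0.81. The shares of all genes higher were 40.6% and 35.6%, with medians of 0.17 and 0.12. After scaling by the median of ratios 13 of the 15 were higher and 1 lower in both comparisons, beside 26.0% and 25.6% of all genes higher. The most abundant were Ccr7, the homing receptor for lymph nodes, at 801 ± 38.9, 1172 ± 68.4 and 684 ± 62.6 TPM in R7-I, R7-II and R7-III, Slfn2 at 583 ± 19.0, 506 ± 24.3 and 557 ± 33.5 TPM, and Tcf7, a transcription factor of naive and memory T cells, at 180.0 ± 15.9, 481 ± 60.5 and 183 ± 2.88 TPM (SD, n = 3). Slfn2, whose loss breaks T cell quiescence, was the exception, at -0.21 against R7-I (limma adjusted p = 0.00276) and -0.14 against R7-III (adjusted p = 0.0234), and it passed in neither with quantile normalization. Bach2 was the other gene that did not pass against R7-III (0.18, limma adjusted p = 0.0116).

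Genes closest to the average of the 8 members were found by the root mean square difference of centred log2(TPM + 1) from the mean profile of the 8 members over the 9 libraries. The 5 closest were Gpd1l (0.0389), Dcaf8 (0.0410), Pstpip1 (0.0440), Zc3h7a (0.0444) and Arhgap30 (0.0460), against a median of 0.266 over 11322 genes. The members themselves were unequal in this measure: Gimap8 (0.0751) and Gimap3 (0.0829) were nearest to the mean profile, while Gimap5 (0.332) and Gimap7 (0.511) were farther from it than the median gene. Of the 11322 other genes, 10149 were nearer to it than Gimap7, so the profile is an average and not a pattern that all members share. The most abundant of the 5, Arhgap30, had 113 ± 1.29, 170.5 ± 8.41 and 119 ± 1.34 TPM in R7-I, R7-II and R7-III (SD, n = 3).

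The sorted cells carried CD8 T cell RNA in every library, with a summed TPM of the 13 markers of 4485 to 4565 for R7-I, 5354 to 5472 for R7-II and 4762 to 4923 for R7-III. Of these markers 9 were higher and 2, Cd5 and Cd6, were lower in R7-II in each comparison. Of all genes, 40.6% were called higher and 15.5% lower against R7-I, and 35.6% and 18.0% against R7-III. After scaling by the median of ratios 6 CD8 markers were higher against R7-I and 7 against R7-III, beside 26.0% and 25.6% of all genes. Markers of some other spleen cells were also higher in R7-II. All 7 B cell markers tested, of 8 in the list, rose in R7-II against either clone, with a summed TPM of 8.14 to 15.2 for R7-I, 34.2 to 71.2 for R7-II and 4.92 to 7.40 for R7-III. All 7 MHC class II genes were higher too, with sums of 32.4 to 50.3, 112 to 183 and 24.3 to 28.1 TPM. Of 9 myeloid markers tested, 6 were higher against R7-I and 8 against R7-III, with sums of 66.9 to 75.6, 106 to 167 and 67.3 to 74.8 TPM. Csf1r, Itgam, Fcer1g, S100a8 and S100a9 of the myeloid list exceeded 1 TPM in R7-II alone. So did Cd22 and Blk of the B cell list and Ciita of the MHC class II list. These passed the filter only through the clone where they were high, so the counts of markers called were partly set by the filter. The sums do not depend on the filter. Cst3 held much of these sums, at means of 66.1, 79.5 and 64.3 TPM, and Lyz2 was at 0.45, 32.9 and 1.89 TPM. After scaling by the median of ratios, 7 B cell, 6 MHC class II and 5 myeloid markers were higher against R7-I. Against R7-III the numbers were 7, 7 and 5. With quantile normalization, 2 and 6 myeloid markers were higher. From R7-I to R7-III the B cell and MHC class II sums fell without overlap, though no gene of these lists passed there. The Gimap sum was higher in R7-III, at 852 to 884 TPM against 789 to 835 TPM in R7-I.

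R7-II replicate 2 had the lowest B cell, MHC class II and myeloid sums of its clone and also the lowest summed Gimap TPM, 1145 against 1202 and 1246. The highest B cell sum of R7-II was in replicate 1 and the highest Gimap sum in replicate 3. In R7-I, replicate 2 had the highest B cell (15.2 TPM) and MHC class II (50.3 TPM) sums but the lowest Gimap sum (789 TPM). In R7-III, replicate 2 had the highest B cell (7.40 TPM), MHC class II (28.1 TPM) and Gimap (884 TPM) sums. The part of B and myeloid cells in the Gimap result was not tested. Endothelial cells also express Gimap genes, and of 6 endothelial markers only Pecam1, which leukocytes share, was tested. It passed as higher in R7-II against either clone, and the sum of the 6 was 3.34 to 3.93, 21.1 to 26.6 and 5.37 to 5.66 TPM in R7-I, R7-II and R7-III, while Cdh5 and Cldn5 were at 0 in every library and the other 5 together reached at most 0.22 TPM. Of 5 erythroid genes tested, 1 was lower against R7-I, where 15.5% of all genes were called lower. The sums of the 8 listed were 44.1 to 129, 1.95 to 21.3 and 13.3 to 39.4 TPM in R7-I, R7-II and R7-III. The sum of the 4 CD4 T cell markers stayed within 3.36 to 8.01 TPM and that of the 5 NK cell markers within 5.77 to 15.4 TPM. Eomes made up nearly all of the NK sum, at means of 12.4, 7.99 and 12.1 TPM in R7-I, R7-II and R7-III. No other NK marker exceeded 0.50 TPM. Among the CD4 markers, Foxp3 was higher (0.59, limma adjusted p = 0.00410) and Cd40lg lower (-1.03, adjusted p = 7.61e-04) in R7-II against R7-III, and neither passed against R7-I. Foxp3 reached at most 1.07 TPM and exceeded 1 TPM in R7-II alone, so it passed the filter only through that clone. With quantile normalization Foxp3 did not pass against R7-III (0.32, limma adjusted p = 0.0577).

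**Figure D5:**
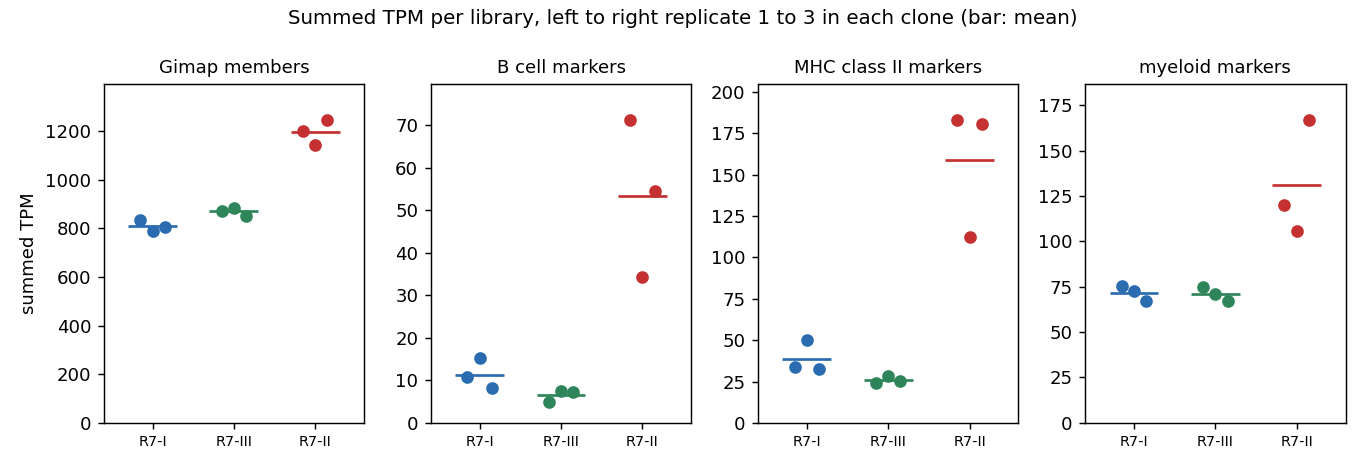
Summed TPM of marker lists of other cell types beside the summed Gimap TPM in each of the 9 libraries. R7-II has the highest B cell, MHC class II and myeloid sums and the highest Gimap sum, and R7-II replicate 2 is the lowest of its clone in each. In R7-I, replicate 2 has the highest B cell and MHC class II sums and the lowest Gimap sum, and in R7-III replicate 2 is the highest in these sums.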

How the data were processed

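RNA-seq of sorted, peptide-stimulated CD8 T cells was taken from 9 libraries, 3 per clone. The deposited values are TPM, which the authors estimated per gene from non-stranded reads on the mm10 RefSeq genes. RSEM 1.2.11 and DESeq2 1.8.1 are named in the submitters' processing notes, and the study's methods give RSEM as the tool for alignment and quantification. TPM keeps no depth, so depth is unknown and no counting interval is given.

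The study's count test needs counts, so limma 3.58.1 with trend in R 4.3.3 was run on log2(TPM + 1) over all 9 libraries, for the 11330 genes whose highest TPM exceeded 1. Calls are Benjamini-Hochberg adjusted p of at most 0.01 over all genes tested. Fold changes on this scale understate changes of low genes. The script was tested on simulated data. Exact permutation tests used scipy 1.17.1. Members and lists were chosen with earlier results of these data known. Beyond the 8 members, named genes were the 3 most abundant of a list and its exceptions, the tested neighbours within 500 kb, and the 5 most alike. Promoter windows are RefSeq's and gene positions are on GRCm38.p6, and coding transcripts are from GENCODE. Alternatives changed the pseudocount (0.1 or 5), filter, scaling, trend, threshold, libraries and replicate block.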

Additional observations from a re-analysis of the deposited data

How the results depend on the processing

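Calls of Gimap3, Gimap4, Gimap7, Gimap8 and Gimap9 in R7-II kept direction and side of the threshold under all 18 alternatives in both comparisons, 10 of the 16 member comparisons of R7-II. Over the alternatives, the number of members called ran from 6 to 8 against R7-I and from 6 to 7 against R7-III. The comparison of R7-III with R7-I was the fragile one. Its 1 called member became 0 with no filter, median-of-ratios scaling, quantile normalization or limma without trend, and 2 with TPM of at least 1 in every library, only the 6 libraries compared or an adjusted p of 0.05. Leaving out a library gave 0 to 2, and all genes called went from 953 to 436 to 1120, or to 2142 at an adjusted p of 0.05. The fewest, 436, came without R7-I replicate 1, followed by 496, 497 and 530 without R7-III replicates 1, 2 and 3 and 577 without R7-I replicate 2. Gimap4 passed there without R7-II replicate 2 (adjusted p = 0.00559), R7-II replicate 3 (0.00272) or R7-III replicate 3 (0.00948). Of the genes called there, 82.8% were higher in R7-III, and 59.0% after median-of-ratios scaling.

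Small differences changed sign. For Gimap1 in R7-II against R7-III the log2 difference was -0.10 with median-of-ratios scaling and ran from -0.0099 (without R7-II replicate 2) to 0.0462 when a library was left out. In R7-III against R7-I, Gimap6 was -0.0380 with median-of-ratios and -0.0068 with quantile normalization. Leaving out a library there moved Gimap6 from -0.022 to 0.0429 (below 0 without R7-I replicate 2, and at -0.0065 without R7-III replicate 2), Gimap7 from -0.0508 (without R7-III replicate 2) to 0.213, Gimap8 from -0.0358 to 0.0057 (above 0 without R7-I replicate 1, and at 5.90e-05 without R7-III replicate 3) and Gimap9 from -0.0538 to 0.017 (above 0 without R7-III replicate 3, and without R7-I replicate 2 at 0.0032). The cause was not tested.

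Replicate numbers are shared by the clones, and no clear pairing by number was seen. Deviations of same-numbered libraries correlated at -0.04 to 0.09 and those of different numbers at -0.09 to 0.06. Of the 9 same-numbered pairs 0 were above 0.1, and a library correlated best with its own number in 7 of 18 cases. With 3 libraries per clone, this check cannot exclude a weak pairing or a shared batch. With the replicate block, the genes called were 6015, 5786 and 733 against 6358, 6077 and 953 without it, for R7-II against R7-I, R7-II against R7-III and R7-III against R7-I. With the block, 0 members were called in the last comparison, where Gimap1 at 0.16 had a limma adjusted p of 0.0164, and no other member's call changed.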

Other observations

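Beside the Gimap genes, a list of 14 activation genes went mostly down in R7-II. Against R7-I, 9 were lower and 1 was higher, with a median log2 fold change of -0.46, and against R7-III 9 were lower and 1 higher, with a median of -0.33. Of all genes, 15.5% and 18.0% were lower. After scaling by the median of ratios 11 were lower against R7-I and the other 3 did not pass, and 10 were lower and 1 higher against R7-III, beside 28.5% and 27.8% of all genes lower. The most abundant were Myc, a transcription factor of growing lymphocytes, at 648 ± 12.4, 545 ± 25.9 and 598 ± 11.3 TPM in R7-I, R7-II and R7-III, Irf4, which tracks receptor signal, at 502 ± 14.8, 406 ± 32.4 and 469 ± 10.4 TPM, and the transferrin receptor Tfrc at 394 ± 25.03, 396 ± 21.9 and 445 ± 16.6 TPM (SD, n = 3). Nr4a1, an immediate early gene of receptor signalling, was the exception, higher in R7-II by 0.36 against R7-I (limma adjusted p = 0.00154) and by 0.48 against R7-III (adjusted p = 2.38e-04). Against R7-I it did not pass after scaling by the median of ratios (0.18, adjusted p = 0.0334).

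Of 11 lymphoid transcription factors, 8 were higher and 1 lower in R7-II against R7-I, and 8 were higher against R7-III with the other 3 not past the threshold, where 40.6% and 35.6% of all genes were higher. After scaling by the median of ratios 6 were higher and 1 lower against R7-I, and 7 higher and 2 lower against R7-III, beside 26.0% and 25.6% of all genes higher. The most abundant, Ikzf1, Ets1 and Elf1, were at 171 ± 5.45, 108 ± 5.47 and 56.9 ± 1.76 TPM in R7-I and at 228 ± 16.1, 281 ± 28.2 and 94.3 ± 6.18 TPM in R7-II (SD, n = 3). Notch1 was the gene that fell against R7-I, by -0.17 (limma adjusted p = 0.00214).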
